A study of Homo sapiens with 6 samples.

Results

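The genes described here encode the ephrin, Slit and netrin guidance cues and their receptors. The rule for membership is the gene symbol, taking in the Eph receptors (EPHA and EPHB genes), the ephrins (EFNA and EFNB), the Slits (SLIT1 to SLIT3), the Robo receptors (ROBO1 to ROBO4), the UNC5 receptors (UNC5A to UNC5D) and the netrins (NTN1 to NTN5), and 36 of the 18417 genes analysed met that rule. Their expression was compared between 3 samples of IMR90 cells, a line of primary human lung fibroblasts, stimulated with a single dose of 10 ng/mL recombinant human oncostatin M, and 3 samples of untreated IMR90 cells. Oncostatin M is related to interleukin-6, and its receptors activate JAK kinases, which in turn activate STAT transcription factors. How long the cells were stimulated is not given in the labels. Total RNA of each sample was hybridised to 1 Affymetrix array, and the deposited values are log2 expression levels.

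Guidance cues were first described in growing axons and also steer, repel or anchor other migrating cells. Eph receptors are receptor tyrosine kinases that bind ephrins on neighbouring cells, so that contact between cells sets off repulsion or adhesion. The A class ephrins are held in the membrane by a lipid anchor and the B class ephrins span it. Slits are secreted repellents that bind Robo receptors, and netrins are laminin-related secreted proteins that attract through DCC and neogenin and repel through UNC5 receptors.

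Each change below is a log2 difference, oncostatin M minus control, given with its standard error (SE), and adjusted p values come from limma over all 18417 genes. The labels do not say that replicates were separate cultures, so these p values measure only the spread between the samples, which may be technical; precision is limited by having 3 arrays a group. Oncostatin M 1 stood apart, with the lowest array weight in limma (0.226, against 0.723 to 3.22 for the other 5 arrays), so the main results are also given without it. The stimulated cells carried the transcripts that oncostatin M is known to induce. SOCS3, a feedback inhibitor of JAK signalling, measured 9.58, 9.70 and 9.63 on the oncostatin M arrays, against 7.54, 7.62 and 7.59 on the control arrays. OSMR, a receptor subunit for the cytokine, rose by 0.82 and STAT3 by 0.45, while IL6ST, the shared receptor subunit, differed by 0.27 (adjusted p = 0.246). STAT3 lost its call when any single control array was left out, with adjusted p values of 0.0784, 0.0531 and 0.0508 without controls 1, 2 and 3. The files hold no detection calls, so the level of each gene is read against those of 409 genes for olfactory receptors and hair keratin partners, which fibroblasts are not known to use. The highest group means among those genes were 10.57 after oncostatin M and 10.74 in control, so not all of them need be silent. Their 95th percentile, 6.77 on the oncostatin M arrays and 6.74 on the control arrays, is used here as the upper bound of the silent range. All 10 fibroblast markers lay above it, with array averages of 11.71 to 11.88 after oncostatin M and 11.61 to 11.70 in control, and 3 of them passed the threshold (LUM rose by 0.75 and PDGFRA by 0.39, and PDGFRB fell by 0.37). These 3 make up 30% of the markers, against 3.42% of all genes. The groups did not overlap for 7 of the 10 (70%, against 18.0% of all genes). All 7 epithelial and all 6 leukocyte markers lay within it. Of 9 endothelial markers 3 lay above it (TEK, CLDN5 and EGFL7), while the other 6, with PECAM1, CDH5, VWF and KDR among them, lay within it. None of the 9 passed the threshold. At an unadjusted p under 0.05 (limma) 1 passed (11.1%, against 11.6% of all genes). TEK, the marker with groups that do not overlap, differed by 0.47 (adjusted p = 0.182). Of 7 smooth muscle and pericyte markers, RGS5 and CSPG4 fell by 0.70 and 0.67 (28.6% called, against 3.42% of all genes). The 7 averaged 8.29 to 8.32 on the oncostatin M arrays, against 8.54 to 8.62 on the control arrays. RGS5 lay above the silent range in control only (7.39, against 6.69 after oncostatin M), so the size of its fall is uncertain. MYH11 lay within that range in both groups. The part of smooth muscle cells and pericytes in the results below was not tested. Of 6 neural markers none passed the threshold, with array averages of 6.64 to 6.90 after oncostatin M and 6.75 to 6.87 in control. At an unadjusted p under 0.05 (limma) 2 passed (33.3%, against 11.6% of all genes). SYT1 and RBFOX3 lay above the silent range in both groups, SNAP25 in control only, and the other 3 within it. SYT1 differed by -0.49, with groups that do not overlap (adjusted p = 0.0512). In such bulk RNA, fewer cells of a type and less RNA per cell cannot be told apart.

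After oncostatin M, 2 of the 36 guidance genes were lower at an adjusted p under 0.05, the ephrin receptor gene EPHA2 and the Slit receptor gene ROBO2, and none was higher. These 2 make up 5.56% of the guidance genes, against 3.42% of all genes called in either direction, 1.70% called lower and 1.72% called higher, so the share rests on 2 genes and stands near the background. At an unadjusted p under 0.05, 8 guidance genes passed (22.2%, against 11.6% of all genes), 3 of them higher and 5 lower. The 3 oncostatin M values lay all above or all below the 3 control values for 9 guidance genes (25.0%, against 18.0% of all genes), namely EPHA2, EPHA6, EFNA1, EFNA5, EFNB2, SLIT2, ROBO2, UNC5A and NTN4. The median change of the 36 was 0.019, with 21 above 0 and 15 below, and the median over all genes was 0.00057. Levels of 20 guidance genes lay above the silent range in both groups, and 16 lay within it in both. EPHA2 and ROBO2 are among the 20.

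**Figure D1:**
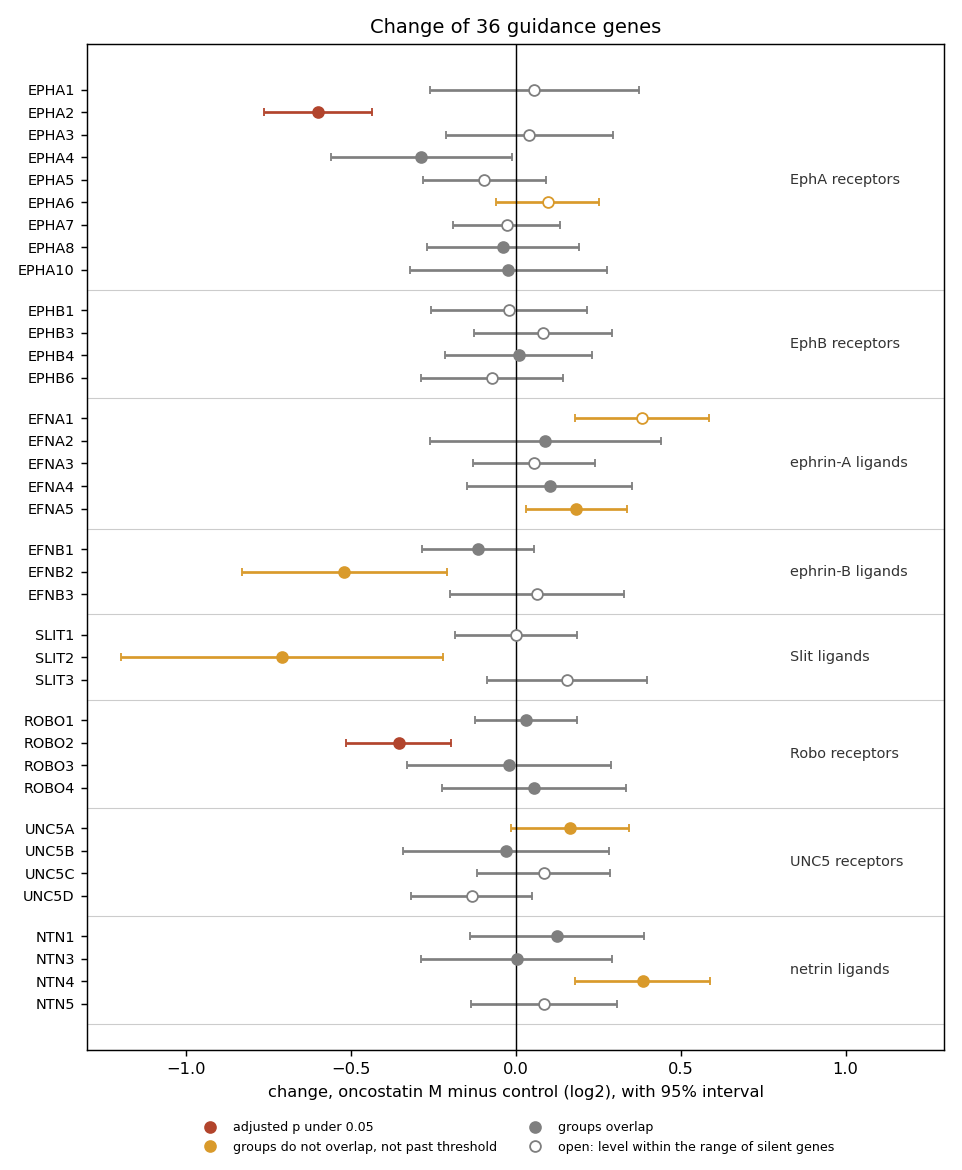
Change of each of the 36 guidance genes (oncostatin M minus control, log2, x axis) with its 95% interval, genes grouped by family on the y axis. Red marks an adjusted p under 0.05, orange the genes whose groups do not overlap without passing the threshold, grey the others, and open circles the genes within the silent range. EPHA2 (-0.60) and ROBO2 (-0.36) are red, and SLIT2 (-0.71) has the lowest point and the widest interval.

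Among Eph receptors, EPHA2 fell. EPHA2, which binds A class ephrins and is found on many epithelial and mesenchymal cells, measured 8.76, 8.88 and 8.90 on oncostatin M arrays 1, 2 and 3, against 9.43, 9.46 and 9.45 on control arrays 1, 2 and 3. Every oncostatin M array lay at least 0.53 below every control array, and the 3 control arrays lay close together. Mean levels were 8.85 ± 0.08 after oncostatin M and 9.45 ± 0.02 in control (SD, n = 3 each), a change of -0.60 (SE 0.07, adjusted p = 0.00308, 1.52-fold lower). The call was kept in each of 6 fits that left out 1 array, with changes between -0.63 and -0.56 and adjusted p up to 0.0282 without control 1.

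EPHA4, which can bind ephrins of both classes, showed the next lowest change of its class, and its groups overlapped. Its values were 8.78, 8.92 and 9.13 after oncostatin M and 9.09, 9.17 and 9.43 in control (change -0.29, SE 0.12, adjusted p = 0.398). EPHA8, and EPHA10, whose product lacks kinase activity, lay just above the silent range and differed by -0.039 and -0.023. A second probe set of EPHA10 gave -0.0093 and was the only other probe set of any guidance gene. EPHA1, EPHA3, EPHA5, EPHA6 and EPHA7 lay within the silent range, with changes between -0.095 and 0.096. The groups of EPHA6 did not overlap, by a gap of 0.018 at a level of 4.14 after oncostatin M and 4.05 in control.

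The EphB genes analysed were EPHB1, EPHB3, EPHB4 and EPHB6, and EPHB2 was not among them. None of those analysed passed the threshold, and none passed at an unadjusted p under 0.05 in the same limma fit. Of those analysed, EPHB4, the receptor for ephrin-B2 known from veins, lay above the silent range. It measured 8.95, 8.94 and 8.86 after oncostatin M, against 8.85, 9.10 and 8.77 in control. These groups overlapped throughout, with a change of 0.008 and a 95% interval from -0.21 to 0.23. EPHB1, EPHB3 and the kinase-inactive EPHB6 lay within the silent range and differed by -0.021, 0.082 and -0.073.

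Of the genes past the threshold, EPHA2 and ROBO2, the RefSeq promoter windows (GRCh38.p14, 250 bases before and 50 after an annotated start) are shown because they carry the sequence next to the transcripts that fell. Capitals mark a match to TTCNNNGAA, the core to which STAT factors are known to bind, which reads the same on both strands. The window of EPHA2 lies at chr1:16156020-16156319 on the minus strand and holds no match. ROBO2 has 2 windows on the plus strand, the upstream one at chr3:76310630-76310929 with 1 match and the downstream one at chr3:77039849-77040148 with none.
EPHA2: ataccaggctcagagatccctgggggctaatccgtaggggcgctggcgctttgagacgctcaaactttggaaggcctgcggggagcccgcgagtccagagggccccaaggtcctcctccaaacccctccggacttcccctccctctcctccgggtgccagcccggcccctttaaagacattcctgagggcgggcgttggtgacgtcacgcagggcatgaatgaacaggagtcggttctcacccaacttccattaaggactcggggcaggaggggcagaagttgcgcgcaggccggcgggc
ROBO2 upstream start: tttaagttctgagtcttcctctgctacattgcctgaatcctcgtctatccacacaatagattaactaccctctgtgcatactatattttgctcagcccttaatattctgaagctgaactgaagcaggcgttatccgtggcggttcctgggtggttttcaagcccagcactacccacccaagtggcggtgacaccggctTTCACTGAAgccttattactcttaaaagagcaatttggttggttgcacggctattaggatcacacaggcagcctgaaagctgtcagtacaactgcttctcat
ROBO2 downstream start: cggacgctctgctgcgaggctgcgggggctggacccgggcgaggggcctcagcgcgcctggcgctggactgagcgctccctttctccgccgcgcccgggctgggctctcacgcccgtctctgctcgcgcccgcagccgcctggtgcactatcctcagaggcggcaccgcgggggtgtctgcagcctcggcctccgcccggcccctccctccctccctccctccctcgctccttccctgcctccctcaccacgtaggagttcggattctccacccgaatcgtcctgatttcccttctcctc

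The match in the upstream ROBO2 window reads TTCACTGAA and begins at position -52 relative to the start. The upstream window has 46.7% G and C and 7 CpG, and the downstream window has 72.3% and 31. The array values do not say from which start the measured transcripts came. RefSeq windows were at hand for 30 of the 36 guidance genes, 40 windows in all, and 4 of these (10%) held the motif, those of EFNA3, EPHA3, EPHA5 and ROBO2, against 7.66% of all 35116 windows. Median G and C content was 65.7% over the windows of guidance genes and 58.7% over all windows. A match describes these letters and is not evidence of binding.

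Among ephrin-A ligands no gene passed the threshold. At an unadjusted p under 0.05 (limma) 2 of the 5 passed, EFNA1 and EFNA5 (40%, against 11.6% of all genes). All 5 changes lay above 0, but that of EFNA2 was below 0 without oncostatin M 1, without control 3 and with array weights. EFNA1, a preferred ligand of EPHA2, measured 5.96, 6.12 and 5.87 after oncostatin M, against 5.65, 5.66 and 5.51 in control. The lowest oncostatin M array lay 0.21 above the highest control (change 0.38, SE 0.09, adjusted p = 0.0646), but both means lay within the silent range, so the size is uncertain and no fold is given. Without oncostatin M 1 the change of EFNA1 was 0.39 (adjusted p = 0.0654). It passed in 1 of 13 alternative fits, with array weights (0.32, adjusted p = 0.0422), and adjusted p reached 0.251 without control 3. EFNA5 measured 8.69, 8.67 and 8.72 after oncostatin M, against 8.55, 8.49 and 8.49 in control. The groups of EFNA5 did not overlap and were each tight, with a change of 0.18 (SE 0.07, adjusted p = 0.284). EFNA2, EFNA3 and EFNA4 differed by 0.089, 0.054 and 0.10, with overlapping groups.

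EFNA4, EFNA3 and EFNA1 lie next to each other on chromosome 1, as ROBO3 and ROBO4 do on chromosome 11 and ROBO2 and ROBO1 on chromosome 3. Side by side, the changes of EFNA4, EFNA3 and EFNA1 were 0.10, 0.054 and 0.38. EFNA4 lay above the silent range, while EFNA3, like EFNA1, lay within it.

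Among ephrin-B ligands, EFNB2, which spans the membrane and is known from arterial endothelium, measured 6.80, 7.17 and 7.34 after oncostatin M, against 7.75, 7.59 and 7.53 in control. All 3 oncostatin M arrays lay below all 3 controls, with oncostatin M 1 the lowest. Means were 7.10 ± 0.27 after oncostatin M and 7.62 ± 0.11 in control (SD, n = 3 each), a change of -0.52 (SE 0.14, adjusted p = 0.0985) that did not pass the threshold. It was -0.37 without oncostatin M 1 (adjusted p = 0.0704), and among 14 alternative fits it passed in 1, with array weights (-0.39, adjusted p = 0.0333). Adjusted p reached 0.376 without control 1. Of the 9 endothelial markers 6 were within the silent range in both groups, and TEK, CLDN5 and EGFL7 were above it, with values of TEK at 9.25, 9.15 and 8.72 after oncostatin M, against 8.69, 8.62 and 8.38 in control. The part of such cells in the EFNB2 values was not tested. EFNB1 differed by -0.12 with overlapping groups, and EFNB3, within the silent range, by 0.063.

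SLIT2 had the lowest change of the 36 genes and one of the widest spreads. This secreted repellent, a ligand of ROBO1 and ROBO2, measured 7.80, 8.34 and 8.70 on oncostatin M arrays 1, 2 and 3, against 8.82, 8.92 and 9.23 on control arrays 1, 2 and 3. The groups were separated by 0.12, while the oncostatin M arrays spread over a wider range than that. Means were 8.28 ± 0.46 after oncostatin M and 8.99 ± 0.21 in control (SD, n = 3 each), and the change of -0.71 (SE 0.21) did not pass the threshold (adjusted p = 0.163). It was -0.47 without oncostatin M 1 (adjusted p = 0.136) and -0.92 without oncostatin M 3, where it passed (0.0474). With array weights the change was -0.38 (adjusted p = 0.194), and adjusted p reached 0.463 without control 3. SLIT1 and SLIT3 lay within the silent range and differed by 0.0015 and 0.16, both with overlapping groups.

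**Figure D2:**
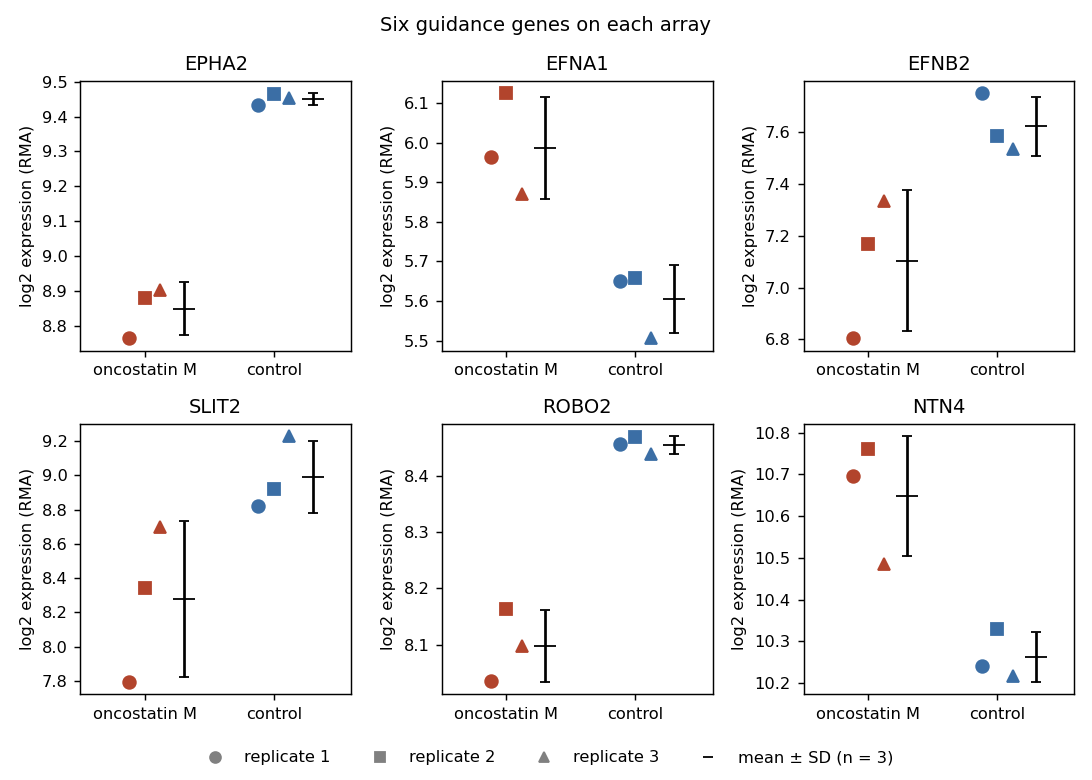
Log2 expression (RMA, y axis) of EPHA2, EFNA1, EFNB2, SLIT2, ROBO2 and NTN4 on each array, oncostatin M at the left and control at the right, with symbols for replicates and black bars for mean ± SD (n = 3). The y axes differ between genes and do not start at 0. The groups do not overlap for any of these 6 genes, and SLIT2 spreads from 7.80 to 8.70 among the oncostatin M arrays.

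SLIT2 and SLIT3 also carry the microRNA genes MIR218-1 and MIR218-2, which lie within their spans on the same strand in RefSeq (GRCh38.p14), and mature miR-218 is known to repress ROBO1. Their mature sequences are shown because the array has a probe set for each microRNA gene beside the probe set of its host. Capitals mark the seed, bases 2 to 8. The 5p product is the same from both genes, at chr4:20528299-20528319 and chr5:168768211-168768231, while the 3p products differ in their seeds.
hsa-miR-218-5p: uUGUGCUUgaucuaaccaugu
hsa-miR-218-1-3p: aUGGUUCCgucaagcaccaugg
hsa-miR-218-2-3p: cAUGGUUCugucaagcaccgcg

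The MIR218-1 probe set measured 4.80, 4.57 and 4.66 after oncostatin M, against 4.76, 5.05 and 4.98 in control (change -0.25, adjusted p = 0.357). The MIR218-2 probe set measured 5.81, 5.84 and 5.72 after oncostatin M, against 5.95, 6.08 and 5.90 in control (change -0.19, adjusted p = 0.372). The groups overlapped for the first and not for the second, and neither passed the threshold. Both lay within the silent range, and the targets were made with a kit for whole transcripts, so these values need not report mature microRNA.

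Among Robo receptors, ROBO2 fell and ROBO1 did not pass. ROBO2 measured 8.03, 8.16 and 8.10 on oncostatin M arrays 1, 2 and 3, against 8.46, 8.47 and 8.44 on control arrays 1, 2 and 3. All 3 oncostatin M arrays lay at least 0.28 below all 3 controls. Means were 8.10 ± 0.06 after oncostatin M and 8.45 ± 0.02 in control (SD, n = 3 each), a change of -0.36 (SE 0.07, adjusted p = 0.0305, 1.28-fold lower). The size was stable, between -0.39 and -0.32 when 1 array was left out, but the call was not. It was lost without oncostatin M 2 (adjusted p = 0.0692), oncostatin M 3 (0.109), control 1 (0.143), control 2 (0.126) or control 3 (0.117), and with each array centred on its median (0.0750).

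ROBO1, its neighbour on chromosome 3 and the other main Slit receptor, measured 10.37, 10.38 and 10.34 after oncostatin M, against 10.39, 10.33 and 10.29 in control. These groups overlapped, and the change was 0.029 with a 95% interval from -0.13 to 0.18. ROBO2 minus ROBO1 within each array (log2) was -2.33, -2.22 and -2.24 after oncostatin M, against -1.93, -1.86 and -1.85 in control. The pair was chosen after its values were seen, so this is a description. Each gene was read by its own probe set, so these differences do not give the relative amounts of the transcripts. ROBO3, known from commissural axons, and ROBO4, known from endothelium, lay just above the silent range. They differed by -0.021 and 0.055, with overlapping groups.

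Among netrins no gene passed the threshold. At an unadjusted p under 0.05 (limma) 1 of the 4 passed (25%, against 11.6% of all genes). All 4 changes lay above 0, but that of NTN3 was below 0 with each array centred on its median, with array weights, and without oncostatin M 1, control 1 or control 3. NTN4, a netrin of basement membranes that binds laminin, measured 10.70, 10.76 and 10.49 after oncostatin M, against 10.24, 10.33 and 10.22 in control. All 3 oncostatin M arrays lay above all 3 controls by at least 0.16, a change of 0.38 (SE 0.09, adjusted p = 0.0641). It passed in 3 of 14 alternative fits, with adjusted p of 0.0395 without oncostatin M 3, 0.0477 when genes with a mean under 6 were left out and 0.0194 with a trended and robust variance prior. In the other fits it did not pass, and adjusted p was 0.252 without control 1, 0.237 without control 3 and 0.216 without oncostatin M 2. Without oncostatin M 1 the change of NTN4 was 0.36 (adjusted p = 0.0868). NTN1, the prototype of the family, measured 7.81, 7.54 and 7.49 after oncostatin M, against 7.59, 7.57 and 7.30 in control (change 0.13, groups overlapping). NTN3 and NTN5 differed by 0.0022 and 0.084, and NTN5 lay within the silent range.

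UNC5 receptors did not pass the threshold, also at an unadjusted p under 0.05 (limma). UNC5A measured 7.06, 6.85 and 6.96 after oncostatin M, against 6.81, 6.76 and 6.81 in control, so that the groups were separated by 0.036 (change 0.16, SE 0.08, adjusted p = 0.502). Its mean in control, 6.79, lay just above the silent range. UNC5B, which also binds FLRT3, lay between 7.74 and 8.23 after oncostatin M, against 7.89 and 8.21 in control, and its groups overlapped (change -0.029, 95% interval from -0.34 to 0.28). UNC5C and UNC5D lay within the silent range and differed by 0.084 and -0.13.

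Oncostatin M 1, the array that stood apart, gave the highest of the 3 oncostatin M values for 23 of the 36 guidance genes (63.9%), against 43.7% of all genes. This array had the highest median over all probe sets (6.663). It also gave the lowest value of its group for 6 (41.6% of all genes), among them EPHA2, EPHA4, EFNB2, SLIT2 and ROBO2, which had the 5 lowest changes. Without oncostatin M 1 the median change of the 36 genes was -0.056, and EPHA2 and ROBO2 were again the guidance genes called.

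**Figure D3:**
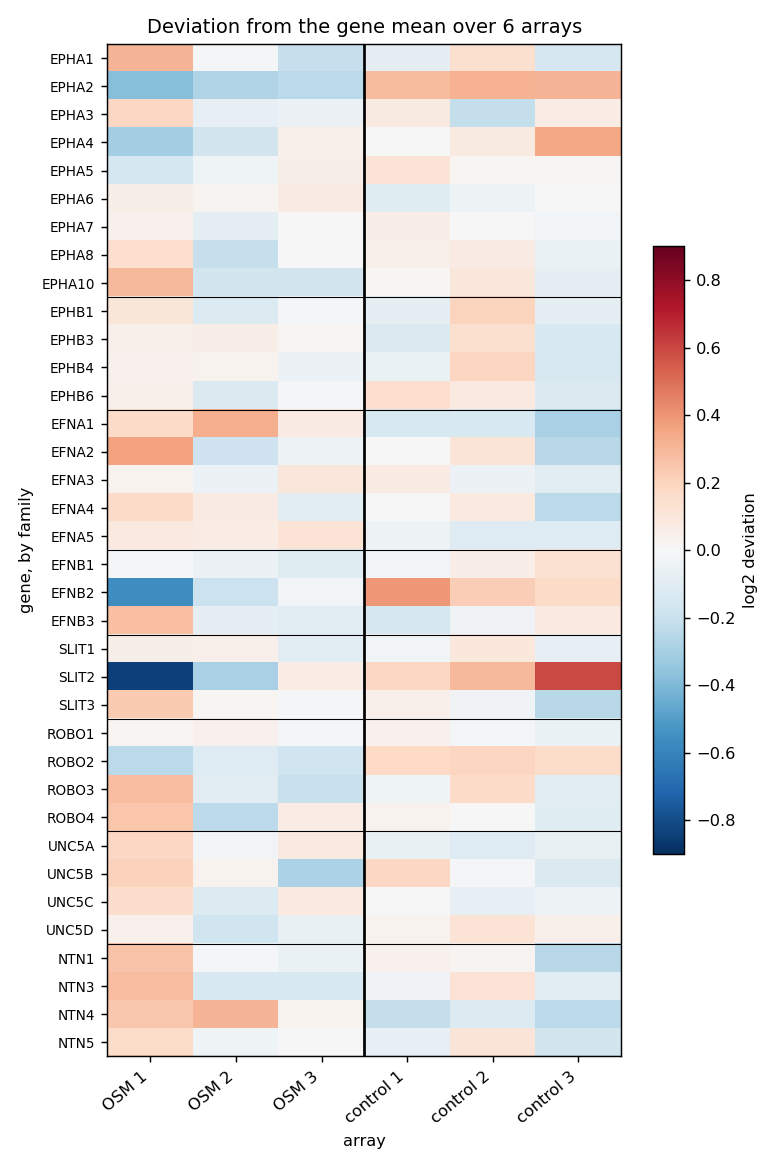
Deviation of each guidance gene from its mean over the 6 arrays (log2, colour), with genes by family on the y axis and arrays on the x axis, oncostatin M (OSM) left of the black line and control right of it. EPHA2 and ROBO2 are blue on all 3 oncostatin M arrays and red on all 3 controls, while SLIT2 and EFNB2 are darkest blue on oncostatin M 1.

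**Figure D4:**
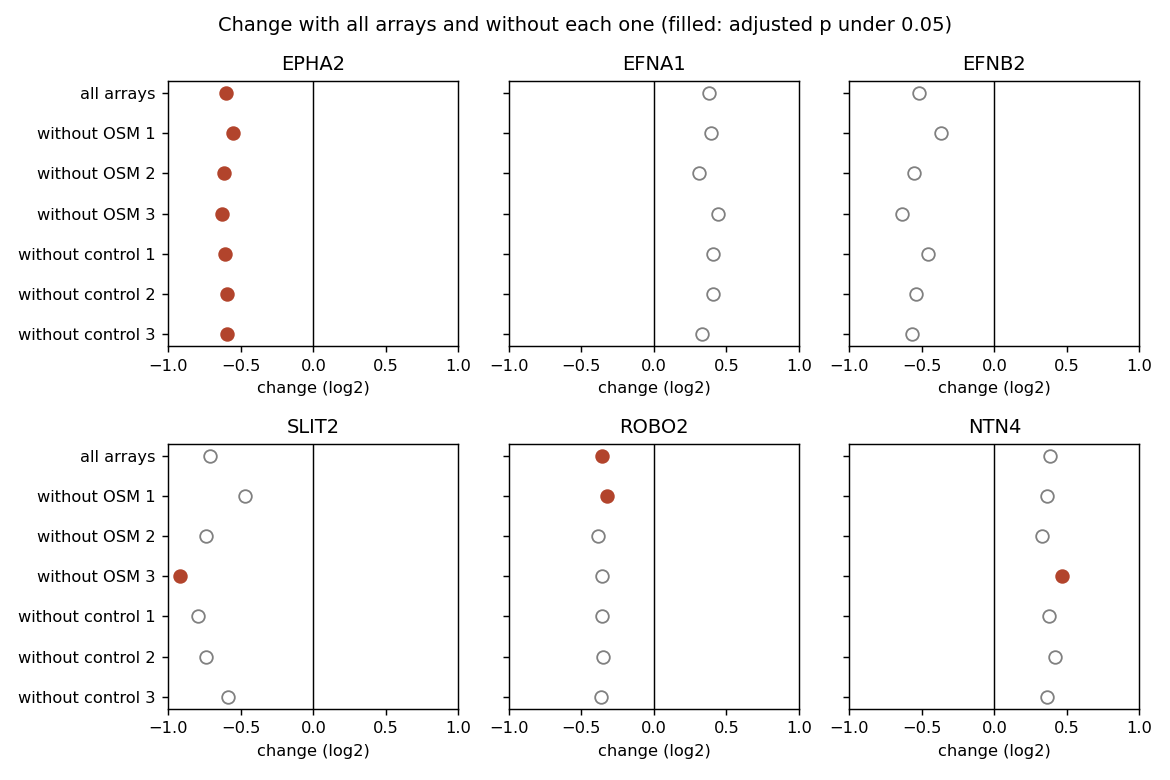
Change (log2, x axis) of EPHA2, EFNA1, EFNB2, SLIT2, ROBO2 and NTN4 with all arrays and without each array in turn (y axis), filled where adjusted p was under 0.05. EPHA2 stays filled throughout, ROBO2 is filled with all arrays and without oncostatin M 1, and SLIT2 ranges from -0.92 to -0.47.

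Partner genes of the guidance receptors were counted from lists chosen for their role, with earlier results of these data known. The shares below therefore describe these lists and do not test them. Of 24 measured receptors, ligands and partners of netrin and UNC5 signalling, 1 was higher and 2 were lower (12.5% called, against 3.42% of all genes, median -0.036), and 7 passed at an unadjusted p under 0.05 (29.2%, against 11.6% of all genes), 2 higher and 5 lower. FLRT3, a transmembrane ligand of UNC5B, measured 9.02, 9.35 and 9.30 after oncostatin M, against 7.72, 7.59 and 7.79 in control. The groups lay 1.23 apart, and the rise of 1.52 (SE 0.10, adjusted p = 0.000322, 2.88-fold) exceeded in size every change among the 36 guidance genes. MYO10, a filopodial myosin that binds netrin receptors, fell by 0.54 (SE 0.07, adjusted p = 0.00357). RGMB, a ligand of the netrin receptor neogenin, fell by 0.39 (adjusted p = 0.0356), and this call was lost without any array other than oncostatin M 1 (adjusted p between 0.0559 without control 3 and 0.179 without control 1). FLRT3 and MYO10 were called in all 6 fits that left out 1 array.

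Of 28 measured Eph and ephrin signalling partners, 1 was higher and none lower (3.57% called, against 3.42% of all genes, median -0.045), with 1 higher and 3 lower at an unadjusted p under 0.05 (limma; 14.3%, against 11.6% of all genes). Both shares stand near the background. SIPA1L1, a Rap GTPase-activating protein that binds EphA4 in rodents, measured 9.96, 10.17 and 10.20 after oncostatin M, against 9.32, 9.30 and 9.60 in control. It rose by 0.70 (SE 0.11, adjusted p = 0.00995), a call lost without control 1 (0.0768) or control 2 (0.0578). Among 11 measured Slit and Robo signalling partners no gene passed the threshold, with 3 lower at an unadjusted p under 0.05 (limma; 27.3%, against 11.6% of all genes), and the actin regulator CAP2 came closest with a change of -0.39 (adjusted p = 0.0541).

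Of 7 measured genes of receptor proteolysis none passed (1 higher at an unadjusted p under 0.05, limma; 14.3%, against 11.6% of all genes), and ADAM10, a protease that cuts ephrins, came closest with a change of 0.29 (adjusted p = 0.0836).

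**Figure D5:**
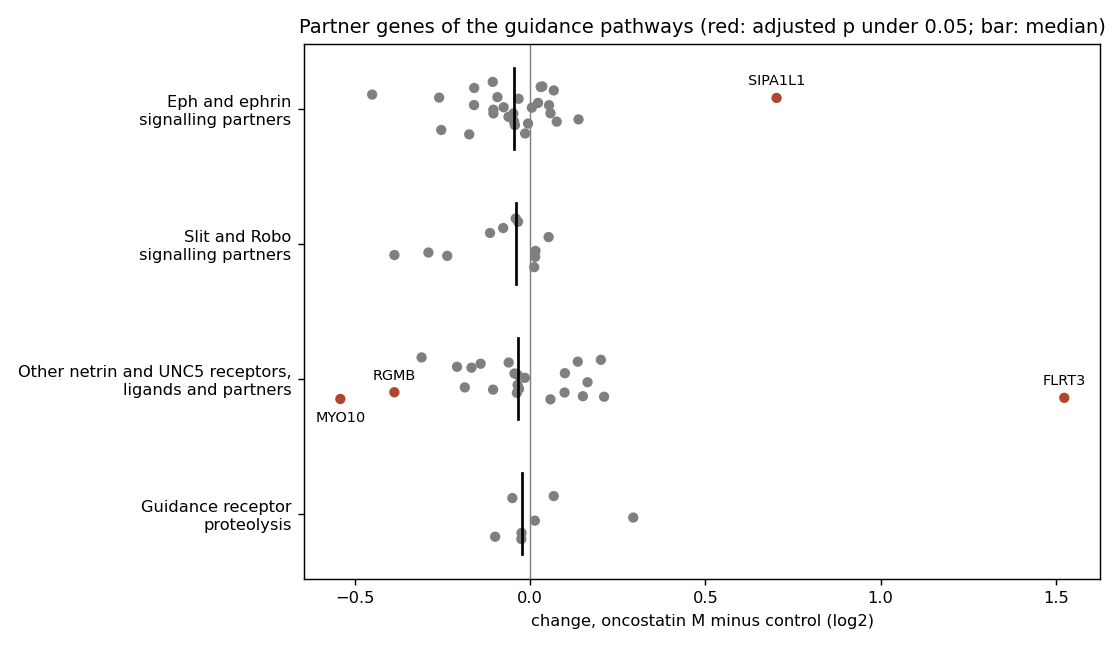
Change (oncostatin M minus control, log2, x axis) of each measured gene in 4 lists of partner genes (y axis), red and named where adjusted p was under 0.05, with black bars at the medians. FLRT3 (1.52) lies far to the right of all others, and MYO10 (-0.54) is the lowest gene called.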

How the data were processed

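Per the labels' protocols, total RNA was purified on columns and amplified with a whole-transcript kit. The authors deposited log2 levels, computed with RMA in Affymetrix Expression Console 1.1 according to the submitters' processing notes. RMA is meant to set the arrays to a common distribution, so a change is relative to the rest of the array. Medians over all probe sets still ran from 6.536 on oncostatin M 2 to 6.663 on oncostatin M 1. Settings and genome build are not stated. Of 33297 probe sets, 19460 had 1 gene symbol, 1754 several and 12083 none listed in the platform annotation. Where a gene had several probe sets, that with the highest mean level was kept, which left 18417 genes. A limma model (version 3.58.1, R 4.3.3, lmFit and eBayes) with group as its term was fitted across all genes, two-sided, with Benjamini-Hochberg adjustment and a threshold of 0.05. The fit was tested on simulated arrays. The naming rule took members past the threshold or with groups that do not overlap and a change of at least 0.3, and from each partner list up to 4 called genes or the gene with the lowest adjusted p. Array values of other members, the silent range, the difference between ROBO2 and ROBO1 and miR-218 were added after values were seen. A further list of partner genes is not reported here. The members and lists were chosen with earlier results of these data known. Sequences are from RefSeq, GRCh38.p14, and figures were drawn with matplotlib 3.10.9. Alternatives covered normalization, probe set, dim genes, variance prior, array weights, a replicate block, left-out arrays and a threshold of 0.01.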

Additional observations from a re-analysis of the deposited data

How the results depend on the processing

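EPHA2 was called lower under each of the 14 alternative fits. No named guidance gene changed sign under any. The groups of every named guidance gene did not overlap, so leaving out or weighting arrays could not change a sign. None of these genes has another probe set, so the fits that vary the probe set could not move their changes. With array weights 667 genes were higher and 610 lower over all genes, and at a threshold of 0.01 the counts were 175 and 112. Leaving out 1 array gave 156 to 400 higher and 105 to 332 lower. Among guidance genes, NTN4 alone was higher when genes with a mean under 6 were left out (1 of 29, against 331 of 13262 genes). It was also the 1 higher with the trended and robust prior (1 of 36, against 403 of 18417 genes). With array weights EFNA1, within the silent range, was the 1 higher, and 0 to 1 was higher when 1 array was left out. The count lower was 1 with arrays centred on their medians and at 0.01, and 1 to 2 when 1 array was left out. Leaving out 1 array gave 10 to 14 guidance genes whose groups do not overlap (14 without control 1). Such a count cannot fall when an array is left out. The share over all genes is not given for these fits, so these counts have no background beside them. With array weights 3 Eph and ephrin partners and 3 Slit and Robo partners were lower, and 1 gene of receptor proteolysis was higher. Without 1 array, 0 to 1 Eph and ephrin partners were higher and 0 to 2 lower, and 1 to 2 netrin and UNC5 partners were lower. The labels do not say whether same-numbered samples were paired. Same-numbered deviations correlated at 0.064, -0.46 and 0.51. The deviations of a group are taken from its own mean and depend on one another, so these correlations cannot settle pairing. With a replicate block 255 genes were higher and 223 lower, ROBO2 lost its call (adjusted p = 0.0860), SLIT2 gained one (0.0462), and 1 netrin and UNC5 partner was lower. The cause of these moves was not tested. With 3 arrays a group and no detection calls, small changes and levels in the silent range are not resolved.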
